A study of Homo sapiens with 10 samples.

Results

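Of 52981 genomic sites at which a ZEB1 peak was called in at least 1 of 4 conditions, 4116 sites (7.77%) carried a peak after 24 h of eribulin and in no other condition. A site belonged to this set when its interval shared at least 1 bp with a peak of the 24 h list and with no peak of the untreated, 48 h or 72 h list. The untreated control list held 46483 peaks, the 24 h list 33466, the 48 h list 21816 and the 72 h list 17941. For comparison, 1630 sites had a peak only at 48 h, 585 only at 72 h and 15853 only in the control, while 12793 sites had a peak in all 4 lists.

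The cells, labelled MDA, are of human breast cancer and carry the label Er-/Pr-/Her2-, that is, without the estrogen, progesterone and HER2 receptors. Cells labelled MDA_ERI received 300 nM eribulin for 24, 48 or 72 h, and untreated cells labelled MDA_Parental served as control. The 3 exposure times share this 1 control, whose time in culture is not labelled, so an effect of exposure cannot be told apart from one of culture time. Each condition had 2 ZEB1 CUT&RUN libraries, and the 2 libraries of untreated cells made with IgG were not used here. CUT&RUN sends a nuclease to the DNA that a protein occupies by means of an antibody, and the released fragments are sequenced. The labels also speak of Tn5 fragmentation, which CUT&RUN does not use, so the protocol behind the libraries is uncertain. Binding data give no expression, so the named line could not be checked by marker genes. In bulk material, the share of cells with ZEB1 at a site and the occupancy per cell cannot be told apart.

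ZEB1 is a zinc finger protein that binds E-box sequences, represses epithelial genes such as E-cadherin and drives the epithelial-mesenchymal transition, in which cells lose junctions and gain motility. At other genes it works together with YAP and AP-1 factors and can raise transcription. Eribulin binds the ends of microtubules and stops their growth, which blocks mitosis, and it has been studied for effects on the epithelial state of breast cancer cells.

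The 2 libraries of a condition differed by less than sampling noise: the chi-square value of their counts, divided by its degrees of freedom, was 0.830 to 0.951 in the 4 conditions over sites with at least 20 counts, where noise alone gives about 1. The pair may therefore be 1 library deposited as 2, and levels and ratios below are pooled, with 1 value per condition. The tests below still take the 8 libraries one by one, so their p-values measure counting noise between these libraries, with no replicate check between cultures. Library totals over all sites ranged between 1130706 (72 h) and 3561455 (control). The control libraries are the deepest, and the part of depth in which sites lack a control peak was not tested. The peaks that defined the set come from the same conditions as the counts, so levels, ratios and call counts of the sites describe the set and do not test it.

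Sequence was read where a site lay inside the RefSeq promoter table of GRCh38.p14, which covers 250 bases before to 50 bases after each annotated start. Of the 4116 sites, 363 touched such a window and 201 lay wholly inside one. The 4 sites among these 201 that hold the ZEB1 E-box, written CAGGTG on one strand and CACCTG on the other, are shown first, as the only ones with a match to it. The following sequences are on the plus strand, 5′ to 3′, with the 5-base core (CAGGT or ACCTG, part of the E-box) in capitals.
KLC1 site, chr14:103629010-103629160: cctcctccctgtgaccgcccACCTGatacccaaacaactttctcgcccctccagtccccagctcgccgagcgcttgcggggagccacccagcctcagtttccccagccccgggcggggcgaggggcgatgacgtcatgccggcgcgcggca
SERPINH1 site, chr11:75562254-75562374: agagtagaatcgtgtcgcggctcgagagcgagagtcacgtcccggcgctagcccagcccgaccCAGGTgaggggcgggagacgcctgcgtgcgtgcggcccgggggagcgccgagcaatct
RNF146 site, chr6:127266536-127266642: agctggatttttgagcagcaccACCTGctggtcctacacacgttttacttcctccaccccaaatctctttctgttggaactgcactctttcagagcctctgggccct
RTL8B site, chrX:135022617-135022730: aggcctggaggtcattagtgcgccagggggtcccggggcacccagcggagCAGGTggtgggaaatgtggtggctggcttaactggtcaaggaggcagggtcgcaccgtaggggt

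The next 2 sequences are the sites with the highest 24 h level among those with no core in them, and the one after them is the stretch of the XAGE1B site that lies inside its promoter window. None has capitals because none holds a core.
JADE1 site, chr4:128809539-128809813: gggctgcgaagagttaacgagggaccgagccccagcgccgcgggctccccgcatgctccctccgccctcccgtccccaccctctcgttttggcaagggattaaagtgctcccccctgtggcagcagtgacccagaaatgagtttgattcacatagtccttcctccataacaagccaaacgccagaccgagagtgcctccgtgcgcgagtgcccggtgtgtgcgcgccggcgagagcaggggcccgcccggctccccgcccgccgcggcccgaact
ZNF616 site, chr19:52139905-52140167: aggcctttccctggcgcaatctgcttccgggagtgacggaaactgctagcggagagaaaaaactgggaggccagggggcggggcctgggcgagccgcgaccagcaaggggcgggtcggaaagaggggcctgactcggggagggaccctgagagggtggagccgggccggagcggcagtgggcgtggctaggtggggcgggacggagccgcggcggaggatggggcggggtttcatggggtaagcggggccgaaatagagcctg
XAGE1B site, chrX:52516963-52517176: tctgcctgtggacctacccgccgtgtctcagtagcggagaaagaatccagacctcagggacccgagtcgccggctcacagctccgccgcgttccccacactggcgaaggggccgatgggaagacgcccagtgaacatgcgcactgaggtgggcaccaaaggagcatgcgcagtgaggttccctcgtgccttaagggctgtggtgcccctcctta

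The sites with an E-box were not those with the strongest 24 h signal. The KLC1 site, at the start of a kinesin light chain gene, had 5 and 7 counts in the control, 14 and 13 at 24 h, 4 and 12 at 48 h, then 7 and 10 at 72 h. The SERPINH1 site, at the gene of a collagen chaperone, had 17 and 6 counts in the control, 9 and 11 at 24 h, 8 and 7 at 48 h, then 8 and 8 at 72 h. At SERPINH1 the 24 h libraries thus lay inside the range of the control libraries in raw counts. The RNF146 site, at the gene of a ubiquitin ligase that acts on ADP-ribosylated proteins, had 9 and 9 counts at 24 h against 12 and 10 in the control. The RTL8B site had 10 and 7 counts at 24 h against 6 and 1 in the control. Control libraries are deeper, and after scaling the pooled level, in counts scaled to the library totals (CPM), was 5.26 CPM at 24 h against 3.55 CPM in the control at SERPINH1, and 4.47 CPM against 1.08 CPM at RTL8B. By contrast, the JADE1 site, without a core, had 34 and 40 counts at 24 h and 26 and 25 in the control (19.4 against 7.86 CPM), and the ZNF616 site had 39 and 32 counts at 24 h and 12 and 32 in the control (18.7 against 6.79 CPM).

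E-box matches were sparse in the 24 h-only promoter sites. Of the 201 sites wholly inside a window, 4 (1.99%; exact binomial 95% interval 0.545 to 5.02) held CAGGTG or CACCTG, against 61 of 467 (13.1%; 10.1 to 16.5) control-only sites, 25 of 378 (6.61%) with a peak in the control and at 24 h only, 40 of 181 (22.1%) in all 4 lists, and 8 of 30 (26.7%) with a late peak absent from the control and 24 h lists. Since sites differ in width, matches per kb are the closer comparison: 0.151 per kb (Poisson 95% interval 0.0413 to 0.388) in the 24 h-only sites, against 0.976 (0.756 to 1.24) in control-only sites, 0.321 (0.210 to 0.470) in sites of the control and 24 h lists, and 0.836 over all 35116 promoter windows, of which 20.6% hold the motif. Counting every base inside a window, sites partly inside included, the rate was 0.173 per kb (0.0748 to 0.341; 8 of 363 sites) in the 24 h-only set against 1.09 (0.944 to 1.25) in control-only sites. The core CAGGT or ACCTG, which every E-box match contains, was in 21 of 201 sites (10.4%; 0.795 per kb) of the 24 h-only set, against 26.3% (2.19 per kb) of control-only sites and 46.8% (2.26 per kb) of all windows. Overlapping windows and neighbouring sites share sequence, so these intervals cover counting error only.

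**Figure D1:**
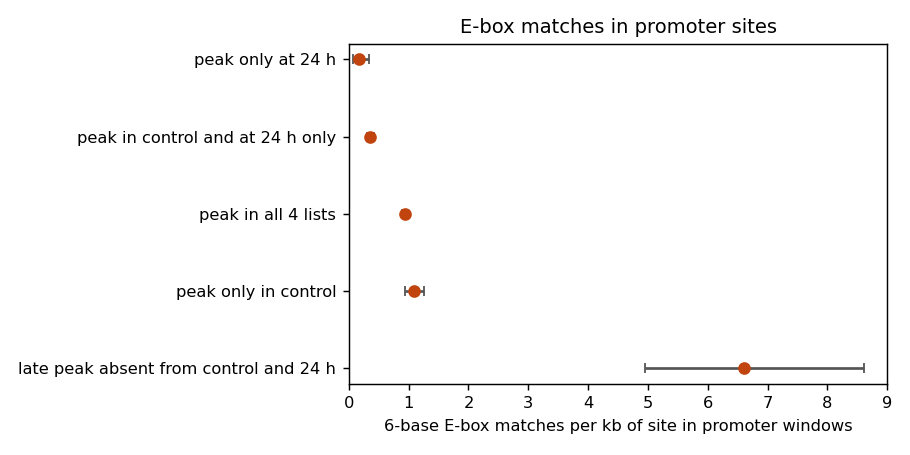
Matches of the 6-base E-box per kb of site sequence inside promoter windows (horizontal axis), sites partly inside included, for 5 sets of sites (rows), with Poisson 95% intervals. The 24 h-only sites are at 0.173 per kb, the sites of the control and 24 h lists at 0.358, the control-only sites at 1.09 and the late sites at 6.60.

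Base composition also differed between the sets, and its part in the E-box difference was not tested. Median GC was 69.2% in the 24 h-only promoter sites, 66.4% in control-only sites, 63.0% in sites of all 4 lists and 58.7% in all windows. It was 65.8% in sites of the control and 24 h lists and 66.4% in late sites. The rate did not follow GC across the sets: these 2 had 0.321 and 5.00 matches per kb, against 0.976 in control-only sites. Within bands of GC, the rate in the 24 h-only sites was 0.158 per kb under 60% GC, 0 from 60 to 65%, 0.215 from 65 to 70%, 0.414 from 70 to 75% and 0 above that, against 1.03, 0.976, 0.973, 0.577 and 1.38 per kb in control-only sites. Against control-only sites the rate was thus lower within each band, but each rests on at most 2 matches in the 24 h-only sites. Sites of the control and 24 h lists were at 0.274, 0.265, 0.466, 0.245 and 0.392 per kb in the same bands. Against these, the 24 h-only rate was not lower from 70 to 75% GC. The AP-1 motif TGANTCA, which both strands share, was in 16 of 201 sites (0.644 per kb; 0.375 to 1.03) of the 24 h-only set, against 0.554 per kb (0.392 to 0.760) in control-only sites and 0.275 per kb in all windows. For this motif the 24 h-only and control-only intervals overlap. These matches describe letters in promoter windows, which hold a small and GC-rich part of the set, and say nothing of the sites elsewhere.

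The 24 h-only sites were narrower and weaker at the median than all sites, though less so than sites with a peak only at 48 h or 72 h. Their median width was 131 bp (interquartile range 110 to 166, lowest 1, highest 624), against 229 bp over all sites. Only 140 (3.4%) were 300 bp or wider, against 38.1% of all other sites, and 129 (3.13%) were under 50 bp. The authors' fold enrichment of the 24 h peak, the pileup over the local background, had a median of 5.98 in the 24 h-only sites, against 7.90 over all sites with a 24 h peak. The median -log10 q was 6.36 against 11.7 in the same comparison. A q of 1e-05 or below was reached by 64.7% of the 24 h-only sites, against 90.3% of the other sites with a 24 h peak. Sites with a peak only at 48 h or only at 72 h were narrower still (medians 123 and 117 bp), with a median fold of 4.54 and 4.64 and a median -log10 q of 3.72 and 3.85 in their own lists. Control-only sites had medians of 155 bp, 6.88-fold and 9.52. The lists differ in depth, whose part in these values was not tested. The median summit pileup was 11 fragments over a local background of 0.944. Another list's peak lay within 500 bp of 547 sites (13.3%), and at 66 sites the called 24 h peak ran on into a neighbouring site.

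The edge of the rule runs through sites with few reads. Just inside it, with the lowest -log10 q of their 24 h peak, were a site near ELK3 (1.32) and a 1 bp interval 26044 bp from ZNF462 (1.37). The ELK3 site, chr12:96177138-96177200, had 6 and 9 counts at 24 h and 1 and 2 in the control. The ZNF462 interval had 5 and 5 counts at 24 h and 7 and 7 in the control. Just outside it, because of 1 other peak of low -log10 q, were sites near CREG2 (1.37 for a control peak), SCGB1C1 (1.37 for a control peak) and HGSNAT (1.40 for a 48 h peak). The HGSNAT site, chr8:43209767-43209899, had 19 and 15 counts at 24 h, 11 and 15 at 48 h and 6 and 9 in the control.

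Across the set, the 24 h libraries had the higher counts although they were not the deepest. The median site had 10 and 8 counts in the control, 17 and 17 at 24 h, 6 and 6 at 48 h, then 6 and 5 at 72 h. As pooled CPM scaled by TMM, a method that assumes most sites do not change, the medians were 2.78 in the control, 8.94 at 24 h, 4.96 at 48 h, then 4.92 at 72 h, against 10.6, 11.3, 11.1 and 10.7 over all sites. The 48 h and 72 h medians of the set thus stood between those of the control and of 24 h, and the control median was far below that of all sites. The 24 h level was the highest of the 4 conditions at 3552 sites (86.3%), and the control level reached or passed the 24 h level at 29 (0.705%). At 11 sites the control had no count. At 3513 sites (85.3%) the 48 h level and at 3459 sites (84.0%) the 72 h level was above the control.

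**Figure D2:**
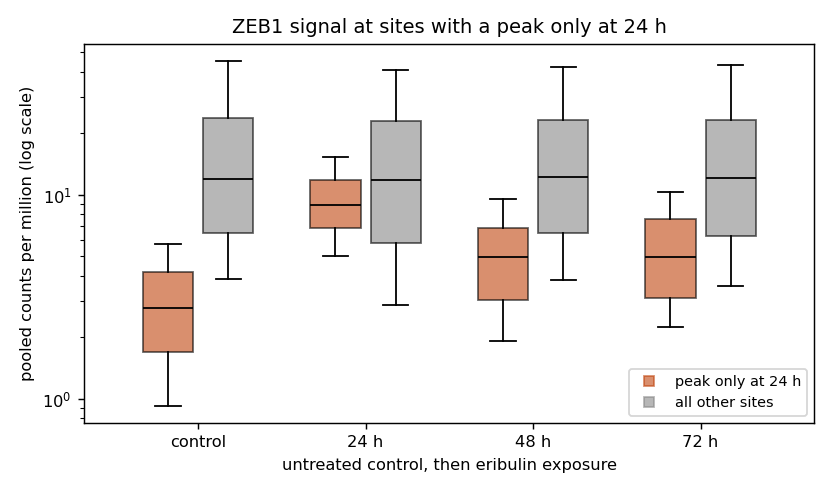
Pooled, TMM-scaled CPM (vertical log axis) of the 24 h-only sites and all other sites in the control and at 24, 48 and 72 h; boxes span the quartiles around the median and whiskers run from the 10th to the 90th percentile of sites. The median of the 24 h-only sites is 2.78 in the control, 8.94 at 24 h, 4.96 at 48 h, then 4.92 at 72 h.

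These directions are relative, because the treated libraries held less signal in sites against the background recovered from their peak lists. This is the peak caller's genome-wide background, taken from the fold and p columns. Site counts per unit of it were 49.0% of the control at 24 h, 37.5% at 48 h, then 35.6% at 72 h. It was assigned to the first library of a condition, and the second took it scaled by the ratio of the 2 libraries' site totals. Whether each list comes from 1 library or from both was not tested. Scaling to that background in place of TMM shifts every log2 ratio by -0.93 for 24 h against the control, -1.42 for 48 h and -1.50 for 72 h against the control, and by -0.49 and -0.57 for 48 h and 72 h against 24 h. The median log2 ratio of 24 h over the control in the set was 1.65 with TMM and 0.71 with background scaling, which kept its sign, whereas the ratio of 48 h over the control was 0.82 with TMM and -0.60 with background scaling, which turned it. The ratio of 72 h over the control likewise had medians of 0.89 and -0.61. With background scaling, the 24 h level was the highest of the 4 at 3511 sites (85.3%), but the control reached or passed it at 557 (13.5%).

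**Figure D3:**
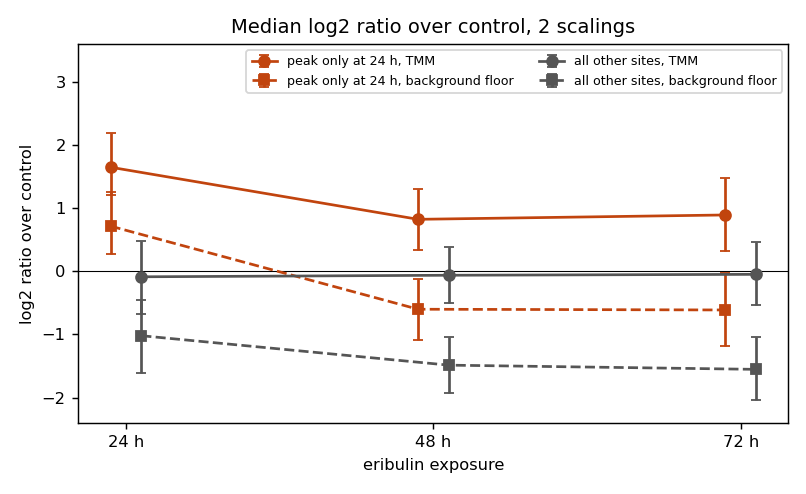
Median log2 ratio over the control (vertical axis) at 24, 48 and 72 h for the 24 h-only sites and all other sites, with TMM scaling (circles, solid) and scaling to the peak caller's background (squares, dashed); bars span the quartiles of sites. The 24 h-only sites stay above 0 at 24 h under both scalings, and fall below 0 at 48 h and 72 h with background scaling.

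Calls by edgeR's quasi-likelihood test (Benjamini-Hochberg adjusted p under 0.05 over 46436 tested sites) could be made for 3248 of the 4116 sites; the other sites had too few counts. A site could pass this filter through its 24 h libraries alone. Against the control, 2985 sites were called higher at 24 h (2753 at least 2-fold) and 0 lower, where 28% of all tested sites were called higher and 26.8% lower; since the rule used these peaks, nothing is read from this. At an unadjusted p under 0.05 the count of lower sites was 1, and DESeq2 called 0 lower. With background scaling 1509 were called higher and 52 lower, where 6.07% of all tested sites were called higher and 65% lower. At 48 h against 24 h, 1274 were called lower (background 14.3%) and 1 higher (16.8%). At 72 h against 24 h, 1134 were called lower (16.4%) and 12 higher (19.4%). The counts of lower sites depend on the tool: DESeq2 called 102 and 118 lower in these comparisons, and leaving out 1 library in edgeR gave as few as 651 and 575. Against the control, 977 were called higher at 48 h (16.8%) and 9 lower (16.9%), and 1135 higher at 72 h (18.9%) and 13 lower (17%). The calls against the control at the later times turn with background scaling, to 82 higher and 1014 lower at 48 h (3.7% and 83.5% of all tested sites) and 117 higher and 1044 lower at 72 h (2.39% and 82.9%). Against 24 h, background scaling gave 2591 called lower and 0 higher at 48 h (41.1% and 7.64% of all tested sites), and 2445 lower and 0 higher at 72 h (43.4% and 7.63%), with 1 and 0 higher at an unadjusted p under 0.05.

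The size of the 24 h difference varied among the sites. The pooled 24 h over control ratio was 4 or more at 1369 sites (33.3%), from 2 to 4 at 2095 (50.9%) and from 1 to 2 at 612 (14.9%). With background scaling the same classes held 379, 1118 and 2051 sites. The 48 h level reached the 24 h level at 288 sites (7.0%) and the 72 h level did so at 400 (9.72%), or at 48 and 58 sites with background scaling.

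Of the 8 sites with the largest ratios among those with at least 50 pooled 24 h counts, the one with the most 24 h counts lay in UCKL1, the gene of a uridine-cytidine kinase-like protein, 265 bp from the microRNA gene MIR647 (chr20:63941895-63942366, hg38). It had 10 and 4 counts in the control, 102 and 104 at 24 h, 17 and 11 at 48 h, then 3 and 6 at 72 h. Both 24 h libraries stood far above every other library. The pooled level was 54.1 CPM at 24 h, against 2.16 CPM in the control, a ratio of 25.1 (counting interval 14.6 to 46.7) and of 13.1 with background scaling. The level was 10.7 CPM at 48 h, then 4.02 CPM at 72 h. At 472 bp, the site was also among the widest of the set.

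The other sites with the largest ratios had few control reads and, apart from the SPCS3 site, lay in intergenic stretches. The AQP10 site (chr1:154305013-154305197), 15896 bp from the gene of a water and glycerol channel, had 1 and 0 counts in the control, 29 and 22 at 24 h, 3 and 15 at 48 h, then 10 and 7 at 72 h. With 1 control count in all, its ratio of 86.9 has a counting interval of 14.9 to 3499.8. The SOD3 site (chr4:24753613-24753810), near the gene of extracellular superoxide dismutase, had 4 and 0 counts in the control, 29 and 25 at 24 h, 9 and 6 at 48 h, then 6 and 8 at 72 h. The PLCXD3 site (chr5:41527283-41527590) had 3 and 3 counts in the control, 38 and 37 at 24 h, 8 and 13 at 48 h, then 4 and 7 at 72 h. At these 3 sites the 24 h libraries lay above all others without overlap, and the later libraries lay above the control ones, also in raw counts. The nearest site with a control peak was 342814 bp from the PLCXD3 site.

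At some of these sites the signal was low at 48 h and higher again at 72 h. The HAAO site (chr2:42881827-42882014), 89244 bp from the gene of a kynurenine pathway dioxygenase, had 1 and 3 counts in the control, 27 and 27 at 24 h, 4 and 4 at 48 h, then 18 and 15 at 72 h. Its pooled levels were 0.617 CPM in the control, 14.2 CPM at 24 h, 3.05 CPM at 48 h, then 14.8 CPM at 72 h, although no 72 h peak was called there, and with background scaling the levels were 7.43 CPM at 24 h and 5.20 CPM at 72 h. The SPCS3 site (chr4:176437889-176437996), inside a gene body and 105644 bp from the end of a signal peptidase subunit gene, had 3 and 2 counts in the control, 22 and 30 at 24 h, 5 and 5 at 48 h, then 12 and 16 at 72 h. The DUSP10 site (chr1:221809130-221809345), near the gene of a phosphatase that acts on p38 and JNK kinases, had 4 and 3 counts in the control, 48 and 38 at 24 h, 4 and 10 at 48 h, then 16 and 16 at 72 h. At SPCS3 the pooled level was 12.5 CPM at 72 h, against 13.7 CPM at 24 h, or 4.41 against 7.16 CPM with background scaling. With that scaling the DUSP10 site had 5.04 CPM at 72 h against 11.8 CPM at 24 h. The FAM9B site (chrX:9070975-9071463) had 2 and 3 counts in the control, 28 and 30 at 24 h, 10 and 12 at 48 h, then 8 and 13 at 72 h.

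**Figure D4:**
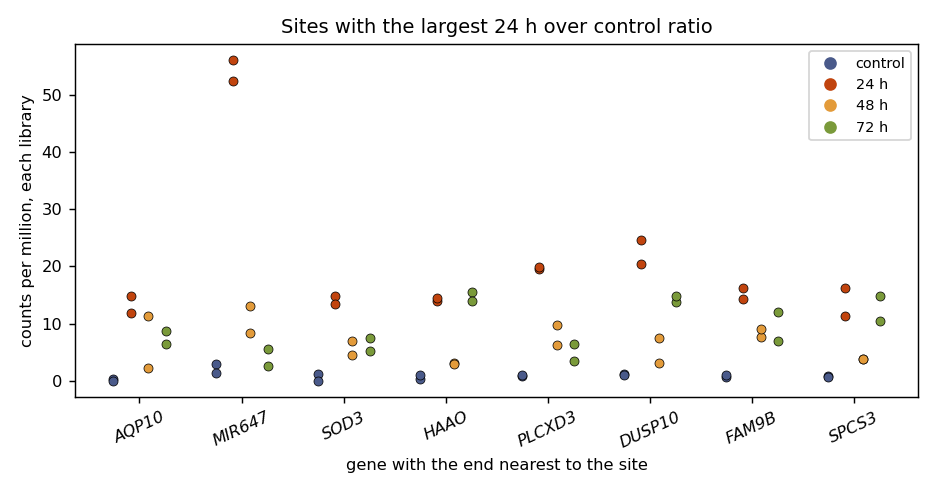
CPM in each of the 8 libraries (vertical axis) at the 8 sites with the largest 24 h over control ratio among those with at least 50 pooled 24 h counts, named by the gene with the nearest end. The 24 h libraries lie above the control libraries at each site. At HAAO and SPCS3 the 72 h libraries lie near the 24 h level with the TMM scaling shown, but lower with background scaling.

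The sites with the highest 24 h level were of another kind: several lay in stretches of high local background. Close to the centromere of chromosome 4, 3 sites at chr4:49107602-49107873, chr4:49140570-49140944 and chr4:49156180-49156522 had CWH43, a gene of lipid anchor remodelling, as their nearest gene at 45523 to 94101 bp. The first had 140 and 107 counts in the control, 197 and 194 at 24 h, 92 and 100 at 48 h, then 103 and 100 at 72 h. Its level was 103 CPM at 24 h against 38.1 CPM in the control, a ratio of 2.70, or 1.41 with background scaling. Its summit stood at 90 fragments over a local background of 44.1, a fold enrichment of 2.02. The part of this background in the result was not tested. A local background of 5 or more was found at 26 sites of the set.

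Similar values were found at 2 sites 19699 and 64313 bp from CCDC200 on chromosome 17, with 44.4 and 44.7 CPM at 24 h against 24.7 and 20.7 CPM in the control. The first of them was higher at 24 h with TMM (log2 0.85) and lower with background scaling (log2 -0.085). The ABHD5 site (chr3:43766765-43767013), 32394 bp from the gene of a lipase activator, had 72 and 63 counts in the control, 87 and 90 at 24 h, 68 and 84 at 48 h, then 89 and 63 at 72 h. Scaled, that was 20.8 CPM in the control, 46.5 at 24 h, 58.0 at 48 h, then 68.0 at 72 h, so its highest level was not at 24 h. It was among the 12 sites called higher at 72 h than at 24 h, with a log2 ratio of 0.55 that became -0.02 with background scaling. The 1 site called higher at 48 h than at 24 h, chosen after its values were seen, lay 107861 bp from NDUFV2, a complex I subunit gene, with 10 and 5 counts in the control, 10 and 11 at 24 h, 20 and 15 at 48 h, then 18 and 13 at 72 h.

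Few sites sat on gene starts, and those that did were led by genes of varied roles. The ARHGEF12 site (chr11:120336100-120336613), on the start of a gene for an exchange factor of RhoA, had 27 and 25 counts in the control, 68 and 48 at 24 h, 19 and 23 at 48 h, then 13 and 12 at 72 h. That is 30.5 CPM at 24 h against 8.02 CPM in the control. The FBXO31 site, on the start of a gene for a ubiquitin ligase subunit, had 17 and 19 counts in the control, 40 and 49 at 24 h, 15 and 13 at 48 h, then 6 and 10 at 72 h. At 72 h the levels were lower than at 24 h, at 11.2 CPM for ARHGEF12 and 7.16 CPM for FBXO31. The XAGE1B site, on the start of a cancer-testis antigen gene whose sequence is printed above, had 16 and 16 counts in the control, 52 and 39 at 24 h, 16 and 10 at 48 h, then 10 and 21 at 72 h. XAGE1B has near-identical copies, so its reads are uncertain. The ST6GALNAC4 site, on the start of a sialyltransferase gene, had 45 and 33 counts at 24 h and 36 and 39 in the control. It was higher at 24 h with TMM (log2 0.82) and lower with background scaling (log2 -0.11).

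Other sites lay on a gene end but matched no start in the promoter table, and some had 72 h levels near those at 24 h with TMM. Starts on chromosome 8, which holds FAM83A and EEF1D, were not read. Whether the gene ends named here are also starts was not checked. The FAM83A site (chr8:123178908-123179100), at a gene linked to growth factor signalling, had 15 and 22 counts in the control, 47 and 58 at 24 h, 24 and 16 at 48 h, then 33 and 40 at 72 h. Its levels were 5.71 CPM in the control, 27.6 at 24 h, 15.3 at 48 h, then 32.6 at 72 h, and the log2 ratio of 72 h over 24 h turns to -0.33 with background scaling. The B3GALT4 site (chr6:33276888-33277292), at a gene of glycolipid synthesis, had 15 and 24 counts in the control, 56 and 44 at 24 h, 17 and 18 at 48 h, then 26 and 31 at 72 h, with a log2 ratio of 72 h over 24 h of -0.61 with background scaling. The site at EEF1D, the gene of a translation elongation factor subunit, had 24.4 CPM at 24 h against 5.71 CPM in the control. The site at CRYM, the gene of a thyroid hormone binding protein, had 23.7 against 4.78 CPM.

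At some sites with the highest fold enrichment the called peak ran beyond the interval. At QRICH1, a regulator of the unfolded protein response, the called 24 h peak reached 16.2-fold, but the interval of 111 bp had 12 and 3 counts in the control, 15 and 21 at 24 h, 2 and 11 at 48 h, then 10 and 8 at 72 h, and a control-peak site lay 280 bp away. At DST, the gene of a cytoskeletal linker, the fold was 15.4 and the interval of 42 bp had 11 and 14 counts at 24 h against 9 and 6 in the control, with a control-peak site 224 bp away. The GSTA3 site (chr6:52929375-52929614), near a glutathione transferase gene, stood alone, with no control-peak site within 46784 bp. It had a fold of 15.5, with 32 and 19 counts in the control, 61 and 39 at 24 h, 12 and 15 at 48 h, then 11 and 13 at 72 h. The KIRREL1 site, 1841 bp from an adhesion molecule gene, had 10 and 11 counts in the control, 40 and 23 at 24 h, 8 and 8 at 48 h, then 9 and 10 at 72 h. The 2 with the highest fold lay far from any protein-coding or microRNA gene end. The first, at 19.7-fold, was on Y (chrY:10967493-10967606), 8055 bp from a control-peak site, and the placement of its reads was not checked. The second, at 16.3-fold (chr17:26783388-26783507, 510403 bp from MIR4522), had 19 and 22 counts in the control, 43 and 28 at 24 h, 12 and 13 at 48 h, then 11 and 15 at 72 h.

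Position was not used to choose the sites. They lay away from gene ends more often than all other sites together: 19.6% (18.4 to 20.8) were within 1 kb of a gene end, against 29.4% (29.0 to 29.8). The share was 17.2% in 48 h-only sites, 33.7% in 72 h-only sites and 3169 of 15853 (19.4 to 20.6%) in control-only sites, so a low share was not particular to 24 h. Other sites within the interquartile width of the set were at 16.0% (15.3 to 16.7), so the difference turns against others of like width. Width moves with this share and its part was not tested. Gene bodies held 46.4% (44.8 to 47.9) of the 24 h-only sites against 43.7% of others, but the difference turns against others of like width, at 52.4% (51.4 to 53.4), and control-only sites were at 50.5%. Intergenic stretches held 34.1% (32.6 to 35.6) against 26.9% (26.5 to 27.3), or 31.6% (30.7 to 32.5) of others of like width. For 48 h-only sites the share was 31.1% (28.9 to 33.4), an interval that overlaps that of the set. More than 100 kb from any protein-coding or microRNA gene end lay 19.0% (17.8 to 20.2), against 11.4% of others and 13.3% (1334 of 10028) of those of like width. Long noncoding RNA genes were not counted in this share. A protein-coding start lay inside 4.23% of the 24 h-only sites outside chromosome 8, against 28.8% of sites with a peak in all 4 lists and 3.90% of control-only sites. Others of like width were at 2.44% (2.14 to 2.77). Genes of at least 300 kb held 10.5% (9.55 to 11.4), against 7.50% (7.27 to 7.74) of others and 8.58% (8.04 to 9.14) of those of like width. Sites of the control and 24 h lists only were at 9.20% (8.61 to 9.81), and this interval overlaps that of the set. Levels hardly varied with position: the median at 24 h was 8.94 CPM in gene bodies, 9.20 CPM in intergenic sites and 7.89 CPM near gene ends, and the control median was 2.78 CPM in each.

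Gene-poor regions held a large part of the set. When all sites were ranked by the number of protein-coding genes within a window of 1 Mb and cut into 5 groups of nearly equal size, the gene-poorest group (0 to 4 genes) held 32.8% (31.4 to 34.3) of the 24 h-only sites, against 9772 of 48865 (19.6 to 20.4%) of all other sites and 22.3% (21.5 to 23.1) of others of like width. The gene-richest group (20 to 77 genes) held 10.2% (9.30 to 11.2) against 20.7% (20.3 to 21.1). From the poorest to the richest group, 12.2, 8.87, 7.48, 6.03 and 3.99% of the sites belonged to the set. Control-only sites spread nearly evenly, with 20.1% in the poorest and 20.1% in the richest group. A weaker lean to gene-poor regions was also seen in sites of the control and 24 h lists only. They had 24.3% (23.4 to 25.2) in the poorest and 17.6% in the richest group. For 48 h-only sites these shares were 22.5% and 22.6%, and for 72 h-only sites 16.9% and 27.0%. The median log2 ratio of 24 h over the control over all sites moved along with gene density, at 0.28, 0.12, 0.00, -0.13 and -0.24 in the same order with TMM, the set included. Background scaling lowers each of these by 0.93 and so makes all 5 negative, with the order kept.

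**Figure D5:**
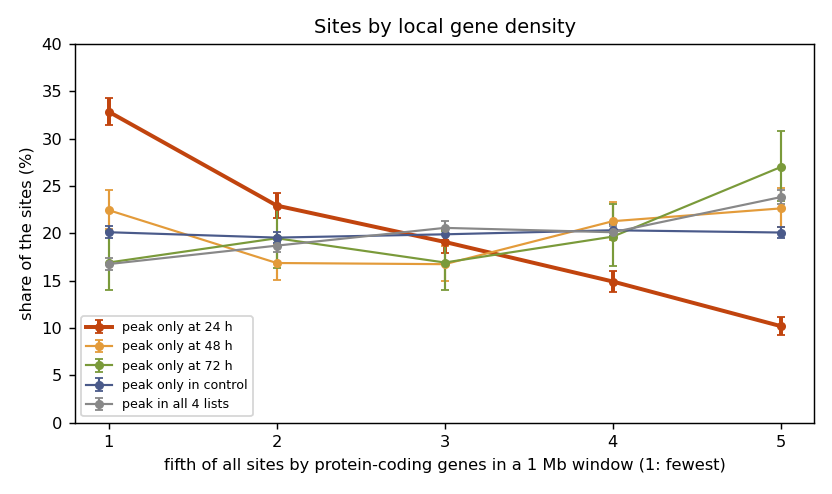
Share of the sites of each set (vertical axis, %) in each of 5 groups of all sites by the number of protein-coding genes in a 1 Mb window (horizontal axis, 1 fewest), with exact binomial 95% intervals. The 24 h-only sites decline across the groups, with 32.8% in the first and 10.2% in the last, while control-only sites stay near 20%.

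Chromosomes differed too, and their shares did not simply follow their number of protein-coding genes. Chromosome 4, with few genes for its length, had 305 24 h-only sites among its 2258 (13.5%; 12.1 to 15.0), and X and 13 had 11.5% and 10.5%. The highest share, 21.2% (8.98 to 38.9), was that of Y, with 7 of 33 sites, but the placement of reads on Y was not checked. Chromosomes 18 and 21, which hold few genes, had 7.79% and 6.09%, near and below the 7.77% of all sites. Chromosomes 17, 19 and 22, with 1169, 1451 and 451 protein-coding genes, had 4.31%, 3.81% (3.10 to 4.63) and 3.63%. The sites were spread out: the nearest other site of any kind lay a median of 7745 bp away, against 6170 bp over all sites, and the nearest site with a control peak 10646 bp away, against 7297 bp.

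By nearest gene end within 100 kb, 3334 sites were linked to 2775 genes, of which 2340 had 1 site, 333 had 2 and 102 had 3 or more. WDFY3, the gene of an autophagy adaptor, had 5, of which the highest, at chr4:84878271-84878403, had 10 and 12 counts in the control, 31 and 19 at 24 h, 5 and 7 at 48 h, then 8 and 5 at 72 h. IGF1R, the receptor of insulin-like growth factor 1, had 4. Its site on a gene end, chr15:98648375-98648583, had 7 and 5 counts in the control, 23 and 28 at 24 h, 6 and 6 at 48 h, then 4 and 6 at 72 h. These genes were named for their number of sites, after that number was seen. MicroRNA hairpins, those of MIR12115, MIR4276 and MIR6077, overlapped 3 sites, and no read of the microRNAs themselves was made.

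Genes of epithelial identity, which ZEB1 is known to repress, had few 24 h-only sites. They made up 5 of 182 sites linked to junction and polarity genes (2.75%) and 5 of 123 linked to epithelial regulators (4.07%). Of all linked sites 7.15% belonged to the set. Among the 10 lists only mesenchymal effector genes lay above that share, and p53 and cell cycle arrest genes were lowest at 1.25%. A low share was thus not particular to epithelial genes. The junction genes with such sites included CTNNA1 (alpha-catenin), DSP (desmoplakin) and TJP1 (a tight junction scaffold). The CTNNA1 site had 13 and 8 counts in the control, 25 and 21 at 24 h, 6 and 9 at 48 h, then 8 and 7 at 72 h, and the DSP site had 9 and 3 in the control, 19 and 18 at 24 h, 11 and 6 at 48 h, then 14 and 8 at 72 h. Among the regulators, the site in EHF, an ETS factor of epithelia, had 28 and 27 counts in the control, 50 and 41 at 24 h, 15 and 13 at 48 h, then 10 and 16 at 72 h. TFAP2A and ZNF750, regulators of surface epithelium, had the others. The median log2 ratio of 24 h over the control was 1.88 in the junction sites and 1.49 in the regulator sites, against 1.65 in the whole set, and 3 of 4 and 4 of 5 tested sites were called higher at 24 h (3 and 3 with background scaling). Of all tested sites 28% were called higher (6.07% with background scaling), and of the 2614 tested 24 h-only sites linked to any gene 2376 were (1147 with background scaling); since the rule asks for a 24 h peak and no control peak, nothing is read from these counts or from those of the other lists.

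Mesenchymal effector genes had 14 of 177 linked sites (7.91%), close to the 7.15% of all linked sites, at 11 genes that include collagens, integrins and CDH2. The site linked to CDH2, N-cadherin, lay 88669 bp away and had 25 and 27 counts in the control, 44 and 42 at 24 h, 24 and 17 at 48 h, then 16 and 12 at 72 h. The COL5A1 site near the gene end had 12 and 8 counts in the control, 24 and 22 at 24 h, 5 and 8 at 48 h, then 3 and 12 at 72 h. The median log2 ratio of the 14 sites was 1.30, and 8 of 11 tested were called higher (4 with background scaling).

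EMT transcription factor genes had 5 of 117 linked sites (4.27%), 1 each at FOXC1, PRRX1, RUNX1, RUNX2 and ZEB2. At ZEB2, the paralog of ZEB1, an interval of 16 bp beside the gene end had 5 and 4 counts in the control, 6 and 6 at 24 h, 1 and 3 at 48 h, then 2 and 4 at 72 h. The PRRX1 site, 39306 bp from the gene end, had 2 and 5 counts in the control, 18 and 13 at 24 h, 2 and 3 at 48 h, then 4 and 2 at 72 h, with both 24 h libraries above all others. The RUNX2 site had 18.4 CPM at 24 h against 6.94 CPM in the control. YAP, TEAD and AP-1 target genes had 11 of 275 (4.0%), led by a site in WWTR1, the gene of the YAP relative TAZ, with 15 and 16 counts in the control, 28 and 23 at 24 h, 12 and 15 at 48 h, then 11 and 9 at 72 h. Of the tested sites of these lists, 4 of 4 and 9 of 10 were called higher at 24 h, but only 1 and 2 with background scaling.

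TGF-beta target genes had 11 of 167 linked sites (6.59%). The highest, 35632 bp from TGFB2, the gene of a TGF-beta ligand, had 16 and 24 counts in the control, 65 and 40 at 24 h, 16 and 13 at 48 h, then 8 and 11 at 72 h, or 27.6 CPM at 24 h against 6.17 CPM in the control. Of 2 sites in TGFBR2, a receptor gene, one had 24 and 17 counts in the control, 33 and 37 at 24 h, 7 and 11 at 48 h, then 14 and 9 at 72 h. Tubulin and mitosis genes, the class nearest to the action of eribulin, had 4 of 112 (3.57%), at CLASP2, KIF18A, STMN1 and TUBA1C. At STMN1, the gene of the tubulin-binding protein stathmin, the site, 5348 bp away, had 3 and 3 counts in the control, 21 and 14 at 24 h, 9 and 6 at 48 h, then 7 and 4 at 72 h, so that both 24 h libraries stood above the control ones without overlap. The site linked to KIF18A, a mitotic kinesin, had 17 and 19 counts at 24 h against 11 and 8 in the control.

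Genes of p53 and cell cycle arrest had 1 of 80 linked sites (1.25%), 62255 bp from BTG1, an antiproliferative gene, with 6 and 9 counts in the control, 18 and 11 at 24 h, 2 and 3 at 48 h, then 3 and 3 at 72 h. Interferon and innate genes had 7 of 105 (6.67%). The site 35061 bp from NFKBIA, the inhibitor of NF-kappa-B, had 26 and 21 counts in the control, 38 and 33 at 24 h, 7 and 8 at 48 h, then 16 and 14 at 72 h. Chromatin regulators had 8 of 122 (6.56%), with sites at EED, KMT2A, SETD2 and TET3 among others. The site in KAT2B, an acetyltransferase gene, had 17 and 18 counts in the control, 35 and 24 at 24 h, 15 and 9 at 48 h, then 2 and 9 at 72 h. In all, 70 sites were linked to the genes of the 10 lists, and 14 of them lay within 5 kb of the gene end. The sites linked to one gene share its surroundings and are not replicates of each other.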

How the data were processed

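Per the submitters' processing notes, the authors used, on hg38 and in no stated order or role, Bowtie2 2.2.6, MACS2 2.1.1, bcl2fastq 2.20.0.422, bedtools 2.30.0, cutadapt 2.4, deepTools, featureCounts and Picard. The deposited table holds raw counts of 8 ZEB1 libraries over 52981 consensus sites; what was counted, reads or fragments, is not given in the sources used here. The deposited peak lists, 1 per condition, give the authors' fold enrichment (a ratio), -log10 p-value and -log10 q-value of each peak, and a score that was not used; their highest q was 0.0497. No column of another sample was found (0).

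From these, sites were classed by overlap of at least 1 bp, and the counts were fitted over all sites with edgeR 4.0.16 in R 4.3.3 (TMM, filterByExpr by condition, robust quasi-likelihood fit of all 8 libraries, condition as the only term, 2-sided), which was tested on simulated data. The common coefficient of variation beyond counting noise was 0.00988, so the libraries of a condition hardly differed beyond that noise. This value does not measure variation between cultures. Pooled CPM are summed counts of a condition's libraries over their TMM-scaled totals, and ratios over many sites had 0.5 added to counts. The peak caller's background was recovered from fold and p, and served as a second scaling. It was assumed to be that of the first library of a condition and was scaled to the second by site totals, so it rests partly on site counts. Intervals are 95% exact binomial or Poisson intervals and cover counting error only. Same-numbered libraries of 2 conditions did not deviate together (correlations -0.00461 to 0.0139), so the numbers do not pair them.

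Genes, microRNAs and promoter sequences came from RefSeq tables of GRCh38.p14; a site takes the name of the nearest gene end, of protein-coding and microRNA genes. Shares near gene ends and in gene bodies also count long noncoding RNA genes. Promoter sequence of chromosome 8 was not used here. All 308 genes of the 10 lists matched. The set and the lists were chosen with earlier results of these data known. Named sites are the 8 with the highest 24 h CPM, the 8 with the largest 24 h over control ratio among those with at least 50 pooled 24 h counts, the 6 with the highest fold, the 8 highest on a protein-coding gene end or start, the highest per list, and the 3 just inside and the 3 just outside the rule; others were named after their values were seen. Some sites that this rule names are not reported here. Alternatives were DESeq2 1.42.0, RLE factors, background scaling, no filter, a replicate block, each library left out, stricter q, and other windows for position and gene density.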

Additional observations from a re-analysis of the deposited data

Results flagged for a closer look

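Peaks on unplaced and unlocalised contigs are outside the consensus sites and entered no comparison. Of the 383 peaks of the 24 h list on such contigs, 65 overlapped no peak of another list, against 34 of 333 in the control list. The 48 h list had 43 of 351 and the 72 h list 12 of 286. These peaks were noticed because they lie in data that the analysis of the sites leaves out; no counts of theirs were analysed here.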

How the results depend on the processing

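Scaling to the peak caller's background and the choice of tool both changed the counts of called sites. With background scaling there were 1509 higher at 24 h than in the control (2985 with TMM), 2591 and 2445 lower at 48 h and 72 h than at 24 h, and 82 and 117 higher at 48 h and 72 h than in the control. DESeq2 called 2051 sites higher at 24 h than in the control, 102 and 118 lower at 48 h and 72 h than at 24 h, and 342 and 453 higher at 48 h and 72 h than in the control; the cause was not tested. Leaving out each library in turn gave 2489 to 3444, 651 to 1312, 575 to 1183, 603 to 1082 and 690 to 1207 in the same 5 comparisons. For 48 h against 24 h, the count was 815 and 742 without the first or second 24 h library, and 683 and 651 without the first or second 48 h library. For 72 h against 24 h, it was 688 and 721 without a 24 h library and 575 and 621 without a 72 h library. For 48 h against the control, it was 603 and 633 without a 48 h library, and for 72 h against the control 690 without the first 72 h library; such fits assume that a lone library varies like the others. The replicate block gave 2986, 1262, 1124, 976 and 1119, and the numbers do not pair the libraries. RLE factors and no filter kept each count within 1.5 times. Of 37 named sites tested at 24 h against the control, 2 turned with background scaling (CCDC200, log2 -0.085, and ST6GALNAC4, log2 -0.11), and 8 lost their call. The ST6GALNAC4 call was also lost with DESeq2 and without the first 24 h library (log2 0.63). The share near gene ends was 28.9% with a window of 3 kb (29.0% of other sites of like width), and 14 sites were linked to the lists within 5 kb. The share in the gene-poorest group was 56.6% with a window of 200 kb (41.5% of other sites), 35.3% at q of 1e-05 or below, and 31.0% without chromosomes 4 and X (19.2% of other sites). These windows and the E-box alternatives, which gave 0.133 per kb at q of 1e-05 or below and 0.101 per kb without sites near another peak, were chosen after seeing the data. Depth limits single sites: the median site had 34 pooled counts at 24 h and 11 at 72 h.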
